A study of Mus musculus with 51 samples.

Results

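At day 4 of differentiation, Ppargc1a RNA was high in 2 of the 6 experiments of this series and low in the other 4. Experiments 2 and 3 hold 6 of the 18 day 4 libraries, of 51 libraries in all, and were set against the 12 day 4 libraries of experiments 1, 4, 5 and 6. The 2 experiments were chosen by their measured Ppargc1a level at day 4, so every day 4 difference between them is a description and carries no test. Libraries of days 2 and 0, which did not enter the choice, were tested.

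The cells were C3H/10T1/2-SAM, a mouse line of mesenchymal origin, able to turn into fat cells, with a CRISPR activation system built in. Each experiment held cells transfected with empty vector plasmid (EV), with a plasmid for a Pparg guide RNA (P), or with plasmids for Pparg and Ybx1 guide RNAs (PY), always with 250 ng of plasmid in all. Every group was given 5 µM rosiglitazone, a ligand of PPARG, on day 0, 48 hours after transfection. The experiment number is the one in the labels' experiment field; it differs from the number in the title for 6 libraries, 4 of P at day 0 and 2 of PY at day 2. The labels give no genotype, strain or treatment that differs between experiments, and do not say whether an experiment was a separate thaw, passage or day. The 3 libraries of an experiment are not independent, so the experiment was the unit and there were 2 against 4. All libraries are from 1 line, and the spread between experiments is the only replication.

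Ppargc1a encodes PGC-1alpha, a coactivator that binds nuclear receptors such as PPARG and the estrogen-related receptors and raises transcription of genes for mitochondria, fatty acid oxidation and, in brown fat, heat production. Its transcription is switched on by cAMP and CREB, by cold in brown fat and by exercise in muscle. Contractile genes of smooth muscle, by contrast, are driven by serum response factor, which binds the CArG box, with coactivators that respond to actin assembly. C3H/10T1/2 cells can take on fat, cartilage, bone or smooth muscle features.

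The window before the Ppargc1a start is shown because this gene defines the comparison. Those before Myl9, Cnn2 and Acta1 are shown as genes low in the same libraries that hold a CArG box there. Low genes without a CArG box in this window are not shown. The sequences are from RefSeq on GRCm38.p6, 5′ to 3′ on the strand of the gene, and end before the first base of the GENCODE gene. Capitals mark the short cAMP response motif (TGACG on either strand, here on the opposite strand as CGTCA) in Ppargc1a and a CArG box in the others.
Ppargc1a, chr5:51567727-51567975, minus strand: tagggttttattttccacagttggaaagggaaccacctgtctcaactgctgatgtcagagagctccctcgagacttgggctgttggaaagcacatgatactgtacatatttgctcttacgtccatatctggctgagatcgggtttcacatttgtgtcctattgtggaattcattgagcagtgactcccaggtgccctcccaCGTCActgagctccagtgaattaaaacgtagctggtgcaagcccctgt
Myl9, chr2:156775214-156775419, plus strand: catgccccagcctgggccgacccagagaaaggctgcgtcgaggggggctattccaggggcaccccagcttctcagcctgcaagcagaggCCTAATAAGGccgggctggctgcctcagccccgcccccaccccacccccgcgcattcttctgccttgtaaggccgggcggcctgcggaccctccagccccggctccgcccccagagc
Cnn2, chr10:79988350-79988583, plus strand: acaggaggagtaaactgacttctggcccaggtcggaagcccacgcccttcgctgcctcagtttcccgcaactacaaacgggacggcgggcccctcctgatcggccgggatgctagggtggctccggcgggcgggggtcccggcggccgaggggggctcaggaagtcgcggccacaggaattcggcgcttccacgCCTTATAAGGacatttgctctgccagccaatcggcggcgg
Acta1, chr8:123894776-123895025, minus strand: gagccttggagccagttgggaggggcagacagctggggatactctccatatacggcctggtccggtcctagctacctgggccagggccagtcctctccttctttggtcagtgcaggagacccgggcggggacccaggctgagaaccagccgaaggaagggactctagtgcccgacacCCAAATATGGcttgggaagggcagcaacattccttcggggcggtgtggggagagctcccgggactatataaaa
The motif of Ppargc1a lies 49 to 45 bases before the RefSeq start. In the 250 bases before the start, 17.8% of 32851 RefSeq promoters hold TGACG on either strand, 1.55% hold the full element TGACGTCA and 1.47% hold a CArG box. Of 9 smooth muscle genes that were low in experiments 2 and 3 at day 4, 7 were in the table and 2, Myl9 and Cnn2, had a CArG box in this window. A match is a description of letters and not of binding.

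Values are CPM, counts divided by library size and scaled to the libraries' composition by TMM, and log2 differences are experiments 2 and 3 minus the other 4 after adjustment for transfection. A gene is called separated at day 4 when, within EV, within P and within PY, both libraries of experiments 2 and 3 lay beyond all 4 others in the same direction. On the other days the call used the libraries present. PY lacks experiment 4 at day 2, and EV lacks experiment 6 and P lacks experiment 2 at day 0. Shares of separated genes are therefore not directly comparable between days. Total counts of the 6 libraries ran from 6969243 to 29185878 and those of the other 12 from 16029915 to 26841678. Ribosomal RNA, nuclear and mitochondrial, took 4.405% to 15.25% of counts in the 6 libraries (median 10.58%) and 0.7151% to 4.076% in the other 12 (median 1.942%). Of the day 0 libraries, EV of experiment 2 stood apart from PY of the same experiment, with Ppargc1a at 0.306 against 4.66 CPM and Acta2 at 4530 against 1400 CPM, so day 0 results are given with and without it.

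Ppargc1a (ENSMUSG00000029167, GRCm38 chromosome 5, 51454250 to 51567726, minus strand) chose the experiments. In EV at day 4 it stood at 38.2 CPM in experiment 2 and 29.5 in experiment 3, against 2.37, 0.886, 0.321 and 0.372 in experiments 1, 4, 5 and 6. In P the values were 38.1 and 29.3 against 2.06, 1.36, 0.336 and 0.364, and in PY they were 35.5 and 27.6 against 2.81, 0.776, 0.558 and 0.249. The lowest library inside the choice was therefore PY of experiment 3 at 27.6 and the highest outside it PY of experiment 1 at 2.81. In experiments 2 and 3 the level was similar in the 3 transfections: in experiment 2, P minus EV was log2 0.00 and PY minus P log2 -0.10. Experiment 1 was the highest of the other 4 in each transfection.

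On day 2 the same 2 experiments held more Ppargc1a. In EV it was at 6.52 and 6.91 CPM in experiments 2 and 3 against 0.443, 0.232, 0.13 and 0 in experiments 1, 4, 5 and 6. In P it was at 12.3 and 7.99 against 0.762, 1.09, 0.285 and 0.249, and in PY at 12.9 and 7.45 against 1.23, 0.426 and 0.215 in experiments 1, 5 and 6. The groups did not overlap. The log2 difference was 4.31 ± 0.58 (SE), with an exact two-sided permutation p over experiments of 0.0667, which is the smallest that the 15 choices of 2 experiments among 6 allow, so the design cannot reach 0.05. In limma across all genes the adjusted p was 0.0586.

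On day 0, the day on which rosiglitazone was given, Ppargc1a was at 5.42, 6.06 and 6.96 CPM in EV, P and PY of experiment 3. Experiment 2 had 0.306 in EV and 4.66 in PY, with no P library. In the other 4 experiments the values ran from 0 to 1.6 CPM. The EV library of experiment 2 lay inside that range and the groups overlapped through it. The log2 difference was 3.27 ± 1.01 (exact permutation p = 0.133, limma adjusted p = 0.466), and 3.96 without that library, where the exact permutation p was 0.0667.

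**Figure D1:**
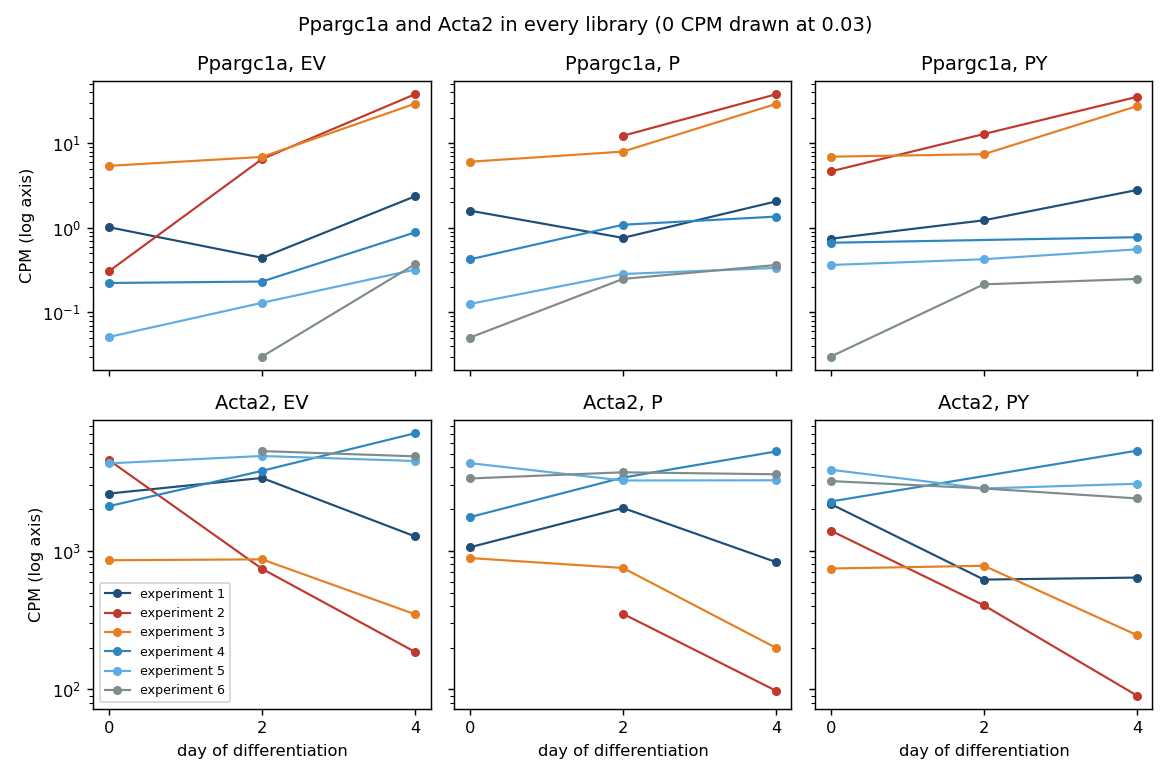
Ppargc1a (top) and Acta2 (bottom) in CPM on a log axis against day of differentiation, 1 panel per transfection, 1 point per library, with lines joining libraries of an experiment and 0 CPM drawn at 0.03. Experiments 2 and 3 (red, orange) sit at 27.6 to 38.2 CPM of Ppargc1a at day 4, and their Acta2 at 90 to 348 CPM lies under the 641 to 7070 CPM of the other 4.

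Across the genome, 818 of 17015 genes (4.81%) were separated and higher in experiments 2 and 3 at day 4, and 1248 (7.33%) were separated and lower. Of these, 283 (1.66%) and 370 (2.17%) differed at least 2-fold. The median log2 difference over all genes was -0.02. At day 2, 217 of the 818 genes were separated and higher (26.5% of them, and 48.8% of the 445 separated higher at day 2), and 304 of the 1248 were separated and lower (24.4%, and 47.7% of 637). The shares of all genes separated at day 2 were 2.62% higher and 3.74% lower. At day 0 they were 1.22% and 1.55%, and 37 and 70 genes of the day 4 sets were separated in the same direction.

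The largest differences upward at day 4 were in Lars2, small annotated RNAs and ribosomal RNA. Nuclear ribosomal RNA took 0.4713% to 4.007% of counts in the 6 libraries and 0.01295% to 0.4017% in the other 12, without overlap. Lars2 did not follow ribosomal RNA in every library. EV of experiment 1 had 0.4017% of counts in nuclear ribosomal RNA and 0.003477% in Lars2 and Gm15564, and EV of experiment 2 had 0.4713% and 0.3335%. Lars2, the mitochondrial leucyl-tRNA synthetase, ran from 2850 to 96700 CPM in the 6 libraries (median 47500) and from 21 to 3680 in the other 12 (median 47.4), a log2 difference of 8.76 ± 0.86 (SE over experiments). The antisense gene Gm15564 differed by log2 8.49, the annotated miRNA Gm25732 by 8.07, the ribosomal RNA gene CT010467.1 by 5.67, the annotated miRNAs Mir6236 and Gm23935 by 5.36 and 4.79, and the mitochondrial 12S gene mt-Rnr1 by 3.29. The treatment of multiply mapped reads is not given in the sources used here, so these values are uncertain.

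At day 4 Ppargc1a and these counts were both higher in experiments 2 and 3. The share of counts in Lars2 and Gm15564 had a median of 4.48% in the 6 libraries and 0.005187% in the other 12. The single libraries that follow were picked as exceptions. In P at day 4, experiment 1 had 3680 CPM of Lars2 and 2.06 CPM of Ppargc1a, while EV of experiment 2 had 2850 CPM of Lars2 and 38.2 CPM of Ppargc1a. At day 0, EV of experiment 1 had 12000 CPM of Lars2 with 1.02 CPM of Ppargc1a, and PY of experiment 2 had 43.6 CPM of Lars2 with 4.66 CPM of Ppargc1a. The part of the ribosomal RNA share in the other differences was not tested.

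**Figure D2:**
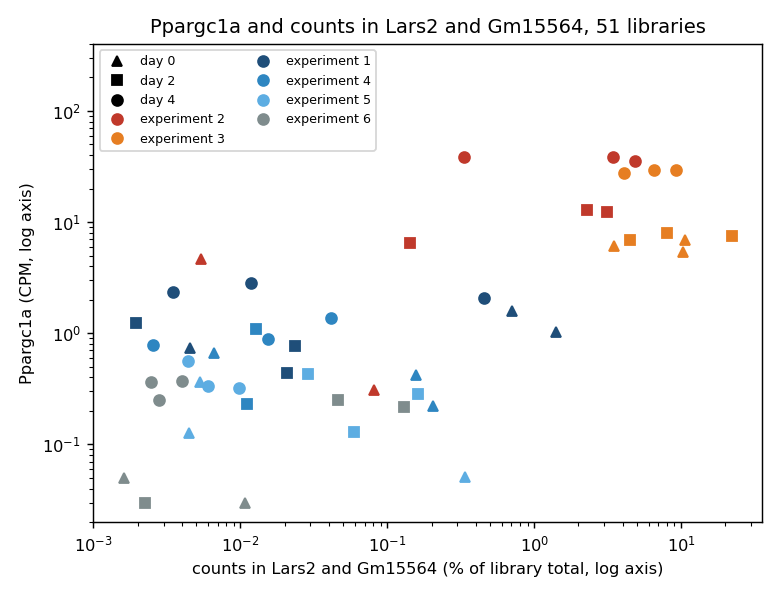
Ppargc1a in CPM against the share of each library's counts in Lars2 and Gm15564, both on log axes, for 51 libraries, with colours for experiments, shapes for days and 0 CPM drawn at 0.03. The day 4 libraries of experiments 2 and 3 hold 0.3335% to 9.167% of counts in these 2 genes, those of the other 4 experiments 0.002452% to 0.4544%.

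Among other genes high at day 4, guanylate-binding proteins and Cd36 stood out by the rule for named genes. Gbp10, of a family of interferon-induced GTPases, was at 32.6 and 47.5 CPM in EV of experiments 2 and 3 against 6.09, 3.13, 8.91 and 1.72 in experiments 1, 4, 5 and 6, and its log2 difference over the transfections was 2.88. Gbp4 differed by log2 2.67. Family members resemble each other, so reads may be split between them. Of 11 family members tested, a set added after their values were seen, 8 were separated and higher at day 4 and 8 at day 2. Another set added in the same way, 13 interferon-inducible p200 genes, had 1 separated and higher at day 4 and 7 at day 2. Of these 13 genes, 10 were positive at day 4 and 12 at day 2. The shares of all genes were 4.81% and 2.62%.

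Cd36, a fatty acid transporter of fat cells, was at 30.8 and 15.1 CPM in EV of experiments 2 and 3 against 4.51, 0.73, 0.505 and 0.372 in the others. In P it was at 1600 and 833 against 446, 190, 691 and 191, and in PY at 2020 and 1290 against 612, 142, 804 and 438. The groups did not overlap in any transfection, and the distance between them was log2 4.45 in EV, 1.82 in P and 1.95 in PY. Between P and EV this difference did not pass (interaction log2 -2.20, edgeR adjusted p = 1 without a block and 0.868 with the experiment block). On day 2 the log2 difference of Cd36 was 0.05 (limma adjusted p = 0.978).

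The 12 genes furthest down were led by contractile genes. Acta2, smooth muscle actin, was at 186 and 348 CPM in EV of experiments 2 and 3 against 1270, 7070, 4450 and 4810 in experiments 1, 4, 5 and 6. In P it was at 97.5 and 199 against 829, 5220, 3230 and 3570, and in PY at 90 and 246 against 641, 5290, 3050 and 2390. Experiment 1, the highest of the other 4 in Ppargc1a, had the lowest Acta2 of those 4 in each transfection, but experiment 4, next in Ppargc1a, had the highest Acta2 of all 6. The log2 difference was -4.01 ± 0.70 (SE over experiments). Actg2, enteric smooth muscle actin, differed by log2 -4.31, Cnn1, calponin, by -4.07, Acta1, skeletal actin, by -3.86 and Tagln, transgelin, by -3.35. Actin genes are close in sequence and reads may be split between them.

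The others of the 12 were Krt15, a keratin (log2 -3.90), Etv4, an ETS factor (-3.80), Kcnf1, a potassium channel subunit (-3.73), Nes, the intermediate filament nestin (-3.71), Il1rl1, the IL-33 receptor (-3.56), Serpinb6b, a serpin (-3.53), and Tes, testin of focal adhesions (-3.34). Several were scarce. Krt15 had a median of 0.443 CPM in the 6 libraries, with a highest value of 0.676, and a median of 7.35 in the other 12.

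**Figure D3:**
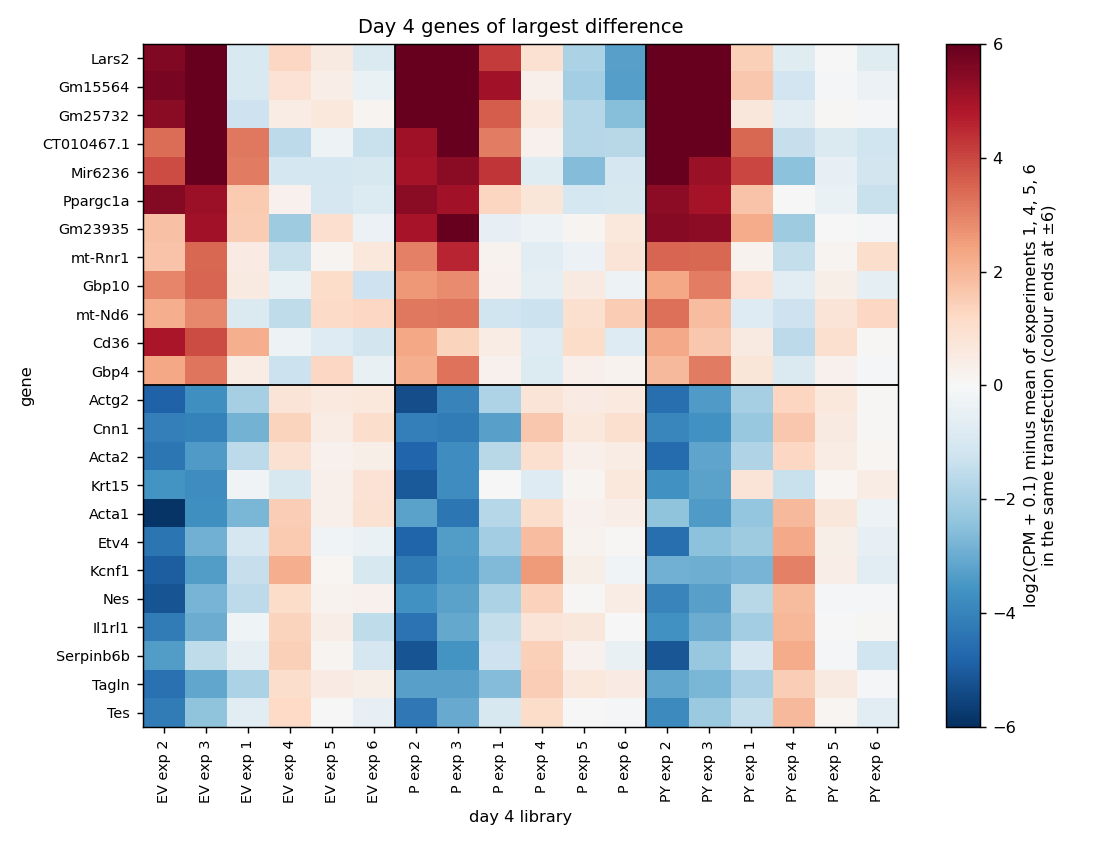
Genes of largest day 4 difference (rows) in the 18 day 4 libraries (columns), coloured by log2(CPM + 0.1) minus the mean of experiments 1, 4, 5 and 6 in the same transfection, with the scale ending at ±6. Columns of experiments 2 and 3 are red in the upper 12 rows and blue in the lower 12, and experiment 1 is blue for Acta2 and Cnn1 too.

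The PGC-1 family and its partners did not move as one. Of 25 members tested, 6 were separated and higher at day 4 and 1 was lower, beside 4.81% and 7.33% of all genes, with a median log2 difference of 0.13. Ppargc1a is 1 of the 6 and was fixed by the choice of experiments. Ppargc1b, the paralogous coactivator, was at 5.5 and 3.55 CPM in EV of experiments 2 and 3 against 1.11, 0.834, 0.367 and 0.744 in the other 4. In P it was at 41.1 and 47 against 10.5, 3.94, 11.6 and 7.4. Unlike Ppargc1a, it was several times higher with the Pparg guide in every experiment, and its log2 difference between experiment sets was 2.49. Per kilobase of exon, mean day 4 levels were 5.01 CPM for Ppargc1a and 7.92 for Ppargc1b in experiments 2 and 3, and 0.158 and 1.71 in the others.

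Prkaa2, a catalytic subunit of the kinase AMPK, was also higher (log2 1.18), as were Nrip1, a nuclear receptor corepressor (0.84), Ncor1, another corepressor (0.53), and Sirt1, a deacetylase that acts on PGC-1alpha (0.29). Nrf1, a transcription factor of nuclear genes for mitochondria, was lower (-0.33). Esrra, the estrogen-related receptor that PGC-1alpha coactivates, differed by log2 -0.01 and Tfam, which maintains mitochondrial DNA, by -0.08, and neither was separated.

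Known targets of PGC-1alpha were counted over the 3 transfections together and within each. Of 20 textbook targets 0 were separated and higher in all 3 transfections and 1, Errfi1, was lower (log2 -0.76), beside 4.81% and 7.33% of all genes, with a median of log2 0.42. Taken by transfection, 3 of 20 lay above all 4 other experiments in EV, 3 in P and 6 in PY, beside 14.4%, 13.4% and 12.1% of all genes. Below all 4 lay 3 of 20 in EV (Cox4i1, Cox5b and Errfi1), 1 in P and 1 in PY. The shares of all genes below were 17.6%, 16.2% and 15.8%. Pck1, which supplies glycerol for triglycerides in fat cells, was at 83.1 and 33.6 CPM in P of experiments 2 and 3 against 16, 3.12, 17.9 and 10.2 in the others, while in EV the groups overlapped. Cycs, cytochrome c, and Pdk4 were likewise above the other 4 in P (log2 1.24 and 1.49) and PY (1.38 and 1.87) and overlapped in EV. Of these 3 genes only Pdk4 passed the test of whether P minus EV differed between the experiment sets, and only with the experiment block. Of 42 nuclear genes of oxidative phosphorylation 2 were higher (Ndufc1, log2 0.73, and Ndufb10, 0.65) and 1 was lower (Ndufa2, -0.68), and the median was 0.05. Of 7 mitochondrially encoded mRNAs tested, mt-Nd6 (log2 2.77) and mt-Nd5 (2.11) were separated and all 7 were positive. These 2 overlap on opposite strands, and the strand setting of the counting is not given in the sources used here. The rest of the 13 listed, mt-Nd3, mt-Nd4l, mt-Co2, mt-Co3, mt-Atp6 and mt-Atp8, had at most 3 counts in any library. Counts for mRNA of the mitochondrial genome thus come from part of its genes. They took 0.7757% to 2.36% of counts in the 6 libraries and 0.2804% to 2.049% in the other 12.

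Fat cell genes and fatty acid oxidation were mostly positive at day 4, and few were separated. Of 25 oxidation genes 24 were positive (median log2 0.55), yet only Acadl, long-chain acyl-CoA dehydrogenase, was separated, at 52.1 to 204 CPM in the 6 libraries and 13.6 to 92.2 in the other 12 (log2 1.69). Taken by transfection, 4 of 25 lay above all 4 other experiments in EV, 5 in P and 15 in PY (16%, 20% and 60%), beside 14.4%, 13.4% and 12.1% of all genes. Below all 4 lay 1 of 25, Ehhadh in EV, beside 17.6% of all genes there. Of 28 fat cell genes 21 were positive, and the median was 0.84. Cd36 and Plin4, a lipid droplet coat protein (log2 1.30), were separated and higher and 0 were lower, beside 4.81% and 7.33% of all genes. Adipoq and Plin1 differed by log2 3.34 and 2.84 in EV without overlap, and by 0.57 and 0.85 in P with overlap. Cfd and Retn had negative differences in P (log2 -1.40 and -2.97) and PY (-1.20 and -3.11), with overlap. Fabp4, the fatty acid carrier, was at 148 and 115 CPM in EV of experiments 2 and 3 against 11.9 to 51.5 in the others (log2 2.53). In P its log2 difference was 0.98 and the groups overlapped, and in PY it was 1.11 without overlap. Pparg itself differed by log2 0.10. At day 2 the medians were -0.12 for oxidation and -0.35 for fat cell genes.

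Some brown and beige genes were scarce, Ucp1 among them. Of 18 brown and beige genes tested none was separated, while 16 were positive with a median of log2 0.94. Taken by transfection, 3 of 18 lay above all 4 other experiments in EV, 6 in P and 7 in PY (16.7%, 33.3% and 38.9%). The shares of all genes were 14.4%, 13.4% and 12.1%. None of the 18 lay below in any transfection, beside 17.6%, 16.2% and 15.8% of all genes. Elovl3, a fatty acid elongase of brown fat, was at 3.58 and 0.966 CPM in P of experiments 2 and 3 against 0.363, 0.117, 0.042 and 0 in the others, and at 5.09 and 3.35 against 0 to 0.335 in PY. Gk, glycerol kinase, and Fgf21, a secreted metabolic hormone, were also above the other 4 in P (log2 1.63 and 2.07) and PY (2.11 and 1.72) and overlapped in EV. Ucp1, the uncoupling protein of brown fat, did not pass the filter and reached at most 0.203 CPM in the 6 libraries, with at most 10 counts in any of the 51. Prdm16, a regulator of brown fat identity, lay between 0.102 and 2.3 CPM against 0 and 1.93, and Cidea, a lipid droplet protein, between 0 and 1.15 against 0 and 0.63. In PY alone Prdm16 (log2 1.49), Cidea (1.45) and Cox7a1 (1.62) lay above the other 4 experiments, and in EV and P they overlapped. Cox8b was not scarce, with a mean of 15.8 CPM per kilobase of exon against 13.7. It lay above the other 4 only in EV (log2 2.33). Adrb3 had a mean of 2.56 against 6.95 and overlapped in every transfection.

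Smooth muscle genes were lower as a group. Of 16 tested, 9 were separated and lower, beside 7.33% of all genes, and 15 were negative, with a median of log2 -1.57. Beyond those named they were Myl9, the regulatory myosin light chain (-3.08), Lmod1, leiomodin (-2.22), Tpm2 and Tpm1, tropomyosins (-2.22 and -1.29), and Cnn2, a calponin (-1.85). Myh11, smooth muscle myosin, and Des, desmin, which mark mature smooth muscle, lay at or under 1.62 and 4.42 CPM in the 6 libraries and were not separated (log2 -0.46 and -0.29). Bulk RNA cannot tell fewer cells of a type from less RNA per cell.

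Some other genes of the cytoskeleton and matrix were lower too, and their counts stand beside 7.33% of all genes separated and lower and 4.81% higher. Of 16 targets of SRF, YAP and TGF-beta 6 were separated and lower, among them Inhba, an activin subunit (log2 -2.25), and Flna, filamin (-1.44), while Tgfb2 was higher (0.90). Of 29 collagen and matrix genes 9 were separated and lower and none was separated and higher. Those lower were led by Col8a1 (-2.56), Timp1, an inhibitor of metalloproteinases (-2.19), Tnc, tenascin (-1.84), and Lox, lysyl oxidase (-1.83). In that list 9 of 29 had positive differences, and the median was log2 -0.39. Among 21 preadipocyte genes 10 were positive, and the median was log2 -0.11. The 4 separated, Thy1 (-1.21), Vim (-1.06), S100a4 (-0.90) and Gsn (-0.75), were lower, whereas Pdgfra overlapped, at 235 to 424 CPM against 74.3 to 332. Of 11 cartilage and bone genes 7 were positive, with a median of log2 0.20, and the 2 separated were lower: Spp1, osteopontin (-3.18), and Col2a1, cartilage collagen (-2.38).

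Interferon response genes were higher and ribosomal protein genes lower. Of 30 interferon genes 6 were separated and higher, beside 4.81% of all genes, and 29 were positive, with a median of log2 0.94. Among those separated, Gbp3, a GTPase, was at 241 to 440 CPM in the 6 libraries and 44.4 to 228 in the other 12 (log2 1.42). Oasl2, of the oligoadenylate synthetase family, differed by log2 1.35, Stat2, a transcription factor of the response, by 1.11, Oas2, an oligoadenylate synthetase, by 1.08 and Psmb9, an immunoproteasome subunit, by 0.92. Of 30 cytosolic ribosomal protein genes 19 were separated and lower, beside 7.33% of all genes, and none was positive (median -0.52, from Rplp1 at -1.08).

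**Figure D4:**
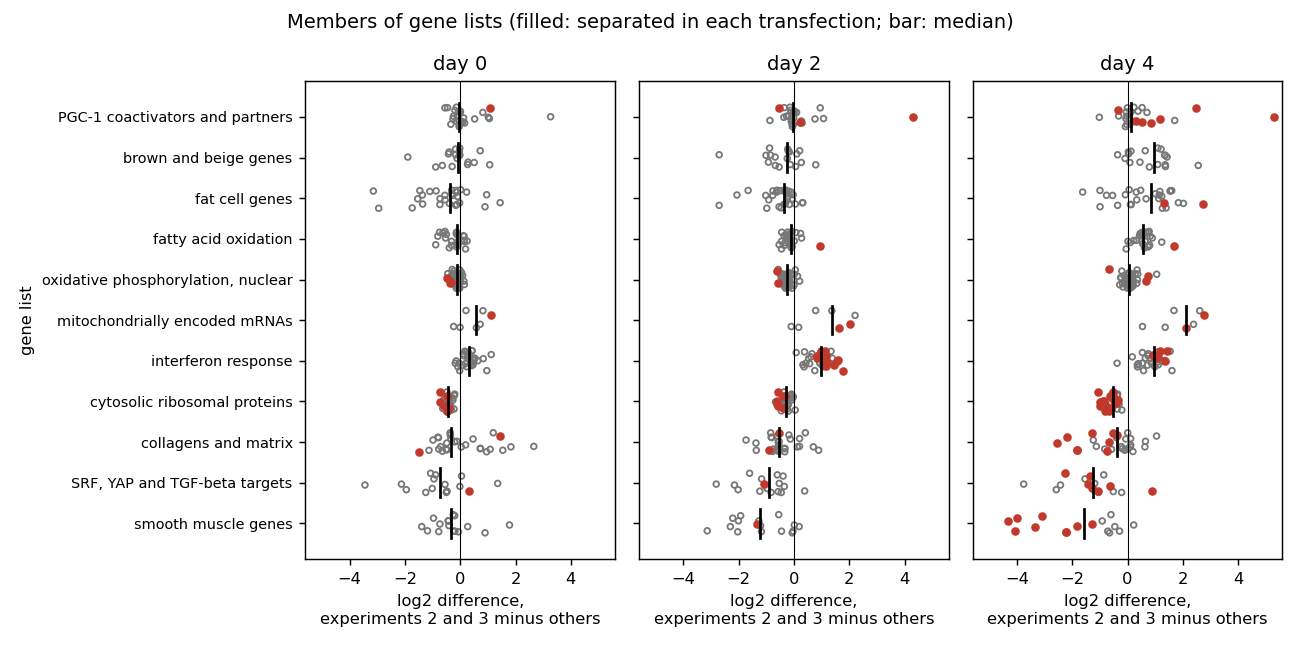
Log2 difference of experiments 2 and 3 minus the other 4 for members of 11 gene lists (rows) on days 0, 2 and 4; filled points are separated in each transfection and the bar is the median. Smooth muscle genes have medians of -0.33, -1.24 and -1.57 on the 3 days, and interferon genes 0.32, 0.99 and 0.94.

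Lists of other signals held separated genes in both directions at day 4, beside 4.81% of all genes higher and 7.33% lower. Of 23 targets of cAMP and CREB, the pathway that switches on Ppargc1a, 1 was higher, Pde3b, a phosphodiesterase (log2 1.68), and 2 were lower, Id1 (-1.18) and Pde4d (-0.37). Of 16 glucocorticoid targets Angptl4, an inhibitor of lipoprotein lipase (2.31), and Nr3c1, the receptor (0.37), were higher, and Sgk1 (-2.11), Fkbp5 (-0.84) and Errfi1 (-0.76) were lower. Of 7 creatine and calcium cycling genes Ckb, brain creatine kinase (-1.58), and Gamt, which makes creatine (-0.96), were lower. None of 30 cell cycle genes, 22 cholesterol synthesis genes or 22 NF-kB targets was separated, but 2, 19 and 5 of them were positive. The cell cycle median was -0.56 at day 4 and 0.15 at day 2. The day 4 medians were 0.41 for cholesterol synthesis and -0.35 for NF-kB targets. Taken by transfection, 0 of 22 cholesterol synthesis genes lay above all 4 other experiments in EV, 5 in P and 8 in PY, and none lay below. The shares of all genes above were 14.4%, 13.4% and 12.1%. Polr2a, the largest subunit of RNA polymerase II, chosen after its values were seen, was higher by log2 1.99 at day 4 and 2.55 at day 2 (limma adjusted p = 0.0586).

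Markers of macrophages, epithelium and endothelium were low. The 5 macrophage markers tested summed to 6.806 to 11.42 CPM in the 6 libraries and 8.218 to 16.15 in the other 12, and the median of Ptprc, the leukocyte antigen, was 0 CPM in the 6. Epithelial markers summed to 0.559 to 1.827 against 1.452 to 17.11, and Krt18 was at 0 in all 6. Endothelial markers summed to 26.59 to 41.15 against 10.75 to 57.46, with Erg, an ETS factor, separated and lower. The 6 neuronal and glial markers tested summed to 96.76 to 166.2 CPM against 77.84 to 182.7, nearly all from Map2 and S100b, while Snap25, of synapses, reached at most 0.0559 CPM in the 6 libraries. Gene length and GC content also moved with the difference: with genes in 4 groups of about equal size, 9.91% of those with the longest exons were separated and higher against 2.28% of the shortest, and 10.8% of those of highest GC were separated and lower against 3.62% of the lowest. Their part in the group differences was not tested.

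At day 2, tested over 2 and 4 experiments with limma, 2 of 17015 genes passed at an adjusted p under 0.05, both higher (0.0118%), and 0 passed with no filter on low counts or without experiment 3 or 5. An unadjusted p under 0.05 was found for 2393 (14.1%). Mir6236 was at 85.3 to 785 CPM in the 6 libraries and 0.465 to 11.9 in the other 11 (log2 5.77, adjusted p = 0.0237). Gm5886, a transcribed pseudogene, was at 6.27 to 10.5 against 0.528 to 1.37 (log2 3.07, adjusted p = 0.0237), higher in 6 of 6 libraries. Without experiment 6 both had an adjusted p of 0.129 in limma, and without experiment 2 Gm5886 had 0.0762. The call depended on how libraries were counted: edgeR with libraries taken as independent called 3430 genes, DESeq2 3968, and a random replicate block for the experiment 504. No member of any list passed at day 2 in the test over experiments. In limma, Acta2 gave log2 -2.21 (adjusted p = 0.0825) and Cnn1 -3.13 (adjusted p = 0.0598).

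Of the 30 interferon genes 13 were separated and higher at day 2, against 2.62% of all genes, and 30 of 30 were positive. Smooth muscle genes had a median of log2 -1.24 with 1 of 16 separated, and PY of experiment 1, at 620 CPM of Acta2, lay among the 351 to 868 CPM of experiments 2 and 3. At day 0 no gene passed with limma in either direction, while 1810 (10.6%) had an unadjusted p under 0.05, edgeR on independent libraries called 2212 and DESeq2 3194. Without the EV library of experiment 2, 14 genes passed.

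The guide effect was compared between the experiment sets, since differences between transfections did not enter the choice. For P minus EV at day 4 edgeR's quasi-likelihood test passed 0 of 17015 genes without a block (145, or 0.852%, at an unadjusted p under 0.05). With the experiment as a replicate block 2 passed (0.0118%), Tns1 and Pdk4, both more positive in experiments 2 and 3. DESeq2 called 1 gene. Pdk4, which restrains glucose oxidation by inhibiting pyruvate dehydrogenase and is a known PPAR and PGC-1alpha target, went from 39.3 to 238 CPM in experiment 2 and from 76.2 to 242 in experiment 3, while in the other 4 it went from 117 to 92.7, 96.6 to 84.1, 101 to 99.2 and 50.6 to 68.8. The interaction was log2 2.15 with the block (adjusted p = 0.0106) and 2.14 without it (adjusted p = 1).

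Tns1, tensin of focal adhesions, had P minus EV of log2 3.36 and 2.75 in experiments 2 and 3 and 1.02, 0.58, 1.06 and 0.69 in experiments 1, 4, 5 and 6. The interaction was log2 2.24 with the block (adjusted p = 0.002) and 2.27 without it (adjusted p = 1). For PY minus P no gene passed with or without the block (61, or 0.359%, at an unadjusted p under 0.05 without it).

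**Figure D5:**
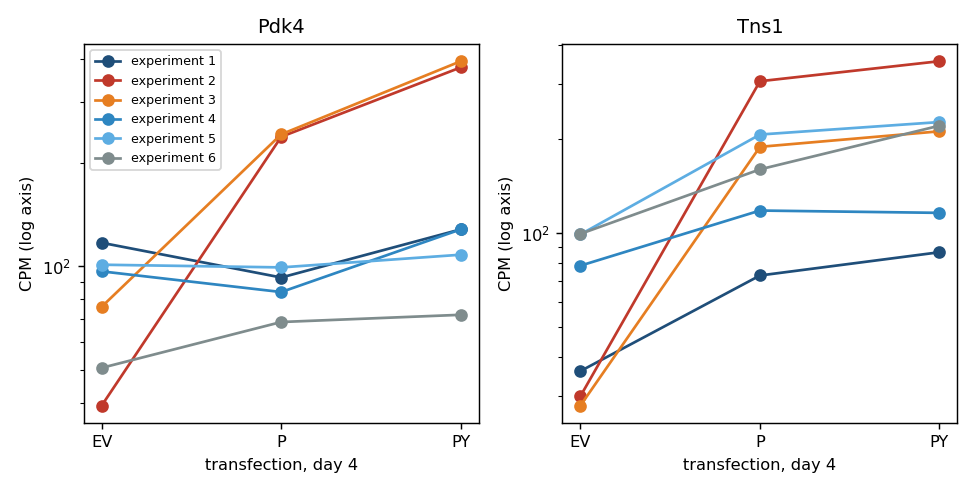
Pdk4 and Tns1 in CPM (log axis) at day 4 in EV, P and PY, with 1 line per experiment. In experiments 2 and 3 Pdk4 stands at 39.3 and 76.2 CPM in EV and at 238 and 242 in P, and the other 4 experiments stay between 50.6 and 128 CPM.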

How the data were processed

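RNA was measured in 51 libraries of total RNA prepared with a stranded kit after ribosomal RNA removal. The deposited values are whole-number counts per Ensembl gene; per the submitters' processing notes, the tools were edgeR 3.22.0, featureCounts 1.5.2 and STAR 2.5.3a, with build mm10 (GRCm38). The annotation release, strand setting and handling of multiply mapped reads are not given in the sources used here. GENCODE M21 named 53706 of 53801 genes. The filter filterByExpr on low counts left 17015 genes, and TMM scaled the libraries (edgeR 4.0.16, limma 3.58.1, R 4.3.3).

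For each day, log2 CPM (prior count 2) was reduced to 1 value per experiment in a model with transfection and experiment, and these values were compared with limma on days 2 and 0. Day 4 was described only, with separation of libraries as the call. The guide effect between experiment sets was tested with edgeR's quasi-likelihood test, with DESeq2 1.42.0 as an alternative. Tests were two-sided with Benjamini-Hochberg adjustment over all genes, and scripts were tested on simulated data. Same-experiment libraries deviated together at day 4 (18 pairs, lowest r 0.237, median 0.625; different experiments -0.186), and the labels name the experiment, so the block is a pairing. Named genes were Ppargc1a, the 12 separated genes of largest difference in each direction with a mean of at least 5 CPM, up to 4 separated members per gene list, and genes that passed a test. The comparison, its members and the gene lists were chosen with earlier results of these data known. Some values of single genes are not reported here.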

Additional observations from a re-analysis of the deposited data

Results flagged for a closer look

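The P minus EV difference of Tns1 differed between experiments 2 and 3 and the other 4 at day 4, by log2 2.24 with the experiment block. That of Pdk4 differed by log2 2.15. Both calls were made with a replicate block for the experiment, and both had an adjusted p of 1 in edgeR without it. A check of each group for a single value far from its others found 0 among 81 groups.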

How the results depend on the processing

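With the experiment as a random replicate block, 504 genes passed at day 2 in place of 2, and with the fixed replicate block 2 passed for P minus EV at day 4 in place of 0. The day 2 count was 0 with no filter on low counts, 1 with ribosomal and mitochondrial genes left out of the scaling (an alternative chosen after seeing the data), 35 without the library of lowest total (PY day 2 replicate 3), 182 in EV alone, 92 in P alone, 0 in PY alone, 3430 in edgeR and 3968 in DESeq2 on independent libraries. Leaving out each experiment in turn gave 0 to 282 genes at day 2: 282 without experiment 1, 15 without 2, 0 without 3, 207 without 4, 0 without 5 and 1 without 6. The day 0 count of 0 became 14 without EV day 0 replicate 2 (chosen after seeing the data), 305 in PY alone, 2212 in edgeR and 3194 in DESeq2 on independent libraries. The 2066 genes separated at day 4 became 5453 in EV alone, 5036 in P alone and 4741 in PY alone, where fewer libraries have to be beyond the others, and 2389 to 4179 with an experiment left out (3371 without 1, 3221 without 2, 4179 without 3). With DESeq2 size factors 1060 genes were higher and 1089 lower. For P minus EV, DESeq2 called 1 gene and no filter 5. No result reversed. Of 439 values of the genes named at day 4, 434 moved by less than their spread, and the other 5 were Cd36 in EV (log2 4.45) and P (1.82), Gm15564 in PY (9.86), Gm23935 in EV (3.39) and Lars2 in PY (10.21). Of 29 values of the genes that passed at day 2, 20 stayed past the threshold and 9 did not. The 2 experiments of the set limit every test: the smallest exact p is 0.0667.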
